A study of Mus musculus with 44 samples.

Results

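The immunoprecipitate recovered through a ribosomal GFP tag was compared with tissue homogenate, in mice that had not been given tamoxifen. The libraries were chosen by title, MG_TRAP_Control A to C against Input_Control A to C, 3 against 3, which is 6 of the 44 libraries of the study. All mice carried CX3CR1-CreERT2 (+/-) and RPL10a-GFP flox (+/-) by their labels, although the design text of the series gives the floxed allele as fl/fl. Control mice received vehicle by the labels and no treatment by the design text. Tamoxifen mice received 100 mg/kg on postnatal days 15, 17 and 19, and dorsal cortex and hippocampus were taken on days 28 to 29. The first-set tamoxifen libraries, MG_TRAP and Input D to F with 3 of each, served as the comparison. A second set of tamoxifen libraries, G to K, supplied an independent list of immunoprecipitated genes. Sex and the number of animals behind a library are not given in the labels, so p-values measure the spread between these samples, which may be technical.

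Translating ribosome affinity purification (TRAP) collects RNA bound to ribosomes that carry a tagged subunit, here RPL10a fused to GFP. In this model the tag is made only in cells where Cre has removed a stop, and the Cre is fused to an oestrogen receptor fragment that tamoxifen brings into the nucleus. Cx3cr1, whose promoter drives the Cre, encodes the fractalkine receptor, and in brain it is expressed by microglia and by macrophages of the brain borders. Control mice therefore have Cre and tag alleles but not the inducer, and their immunoprecipitate holds whatever RNA the procedure recovers without induction. Such RNA can in principle come from cells recombined without the inducer or be retained unspecifically. GFP RNA, which bears on recombination, was not analysed here.

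The control immunoprecipitates held 12712307, 1522779 and 9529240 assigned reads, and the control homogenates 9943319, 5440203 and 4423004. The B immunoprecipitate was the shallowest of these 6 libraries and detected the fewest genes, 12551 against 14733 to 16335 in the other five. A floor of 3 counts, the most that a count of 0 allows, was 0.236 to 1.97 counts per assigned read scaled to a common library size (CPM) in the control immunoprecipitates and 0.302 to 0.678 in the control homogenates, and covers counting error only. The share of reads that did not align ranged from 2.71% to 18.8% over these libraries and was under 6% in Input A and in immunoprecipitates A and C. By marker genes, the homogenates held neuronal, astrocytic, oligodendroglial and microglial RNA. The immunoprecipitates are labelled as microglia; in control libraries the 30 microglial markers took 0.937% to 2.43% of reads and 20 general neuronal markers took 1.95% to 2.51%. The microglial share was the lower of these in immunoprecipitates A and B and the higher in C.

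Across genes, the control immunoprecipitate resembled homogenate. The Pearson correlation of log2 CPM between a control immunoprecipitate and a control homogenate was 0.606 to 0.683 over 9 pairs, against 0.670 to 0.754 among the homogenates and 0.618 to 0.735 among the immunoprecipitates. Between tamoxifen immunoprecipitates and tamoxifen homogenates it was 0.393 to 0.578. Points in these correlations share libraries and the same genes, and depth differs between pairs.

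Of 13847 genes tested, 20 were higher in the control immunoprecipitate than in homogenate (0.144%) and 1 was lower (0.00722%), at an adjusted p under 0.05. With tamoxifen the same procedure gave 513 higher (3.7%) and 321 lower (2.32%). That balance turned with total-count scaling, to 362 higher and 707 lower. The 20 genes are grouped here by how the tamoxifen immunoprecipitates compared with the control ones. In 15 of them, C1qa, Ctss, Gpr34, Spi1 and Irf8 among them, the first-set tamoxifen immunoprecipitates D to F were all higher still. Of these 15, 5 are in the list of homeostatic microglial markers, Lyz2 is in the lysosomal list, and 9 are in no list used here. Kalrn, Atg7, Zbtb48 and Yeats2 made up 4, and each was lower in all of D to F than in all 3 control immunoprecipitates. Against the second-set tamoxifen immunoprecipitates G to K, in unscaled CPM, 12 of the 15 lay under all 5, Arhgap30, Gpr34 and Spi1 overlapped, and of the 4 only Zbtb48 lay above all 5. The sets also differ technically, with 26.2% to 36.3% of reads multiply aligned in control immunoprecipitates and 13.2% to 15.3% in G to K. That comparison therefore mixes set with tamoxifen. Noa1, a mitochondrial GTPase, was the last of the 20. Among all genes tested 16.03% lay above and 13.75% lay below in tamoxifen without overlap. Among the 851 genes above homogenate without overlap in control, 213 lay above (25.03%) and 280 below (32.9%). These shares differed by the list from the second set, which holds 18 of the 20 called genes. In that list 141 of 172 lay above (81.98%) and 7 below (4.07%). Outside it 72 of 679 lay above (10.6%) and 273 below (40.21%). Kalrn, Atg7 and Yeats2 are in the list and Zbtb48 is not. The grouping of the 20 compares the immunoprecipitates with each other and so reuses the control libraries that made the calls.

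**Figure D1:**
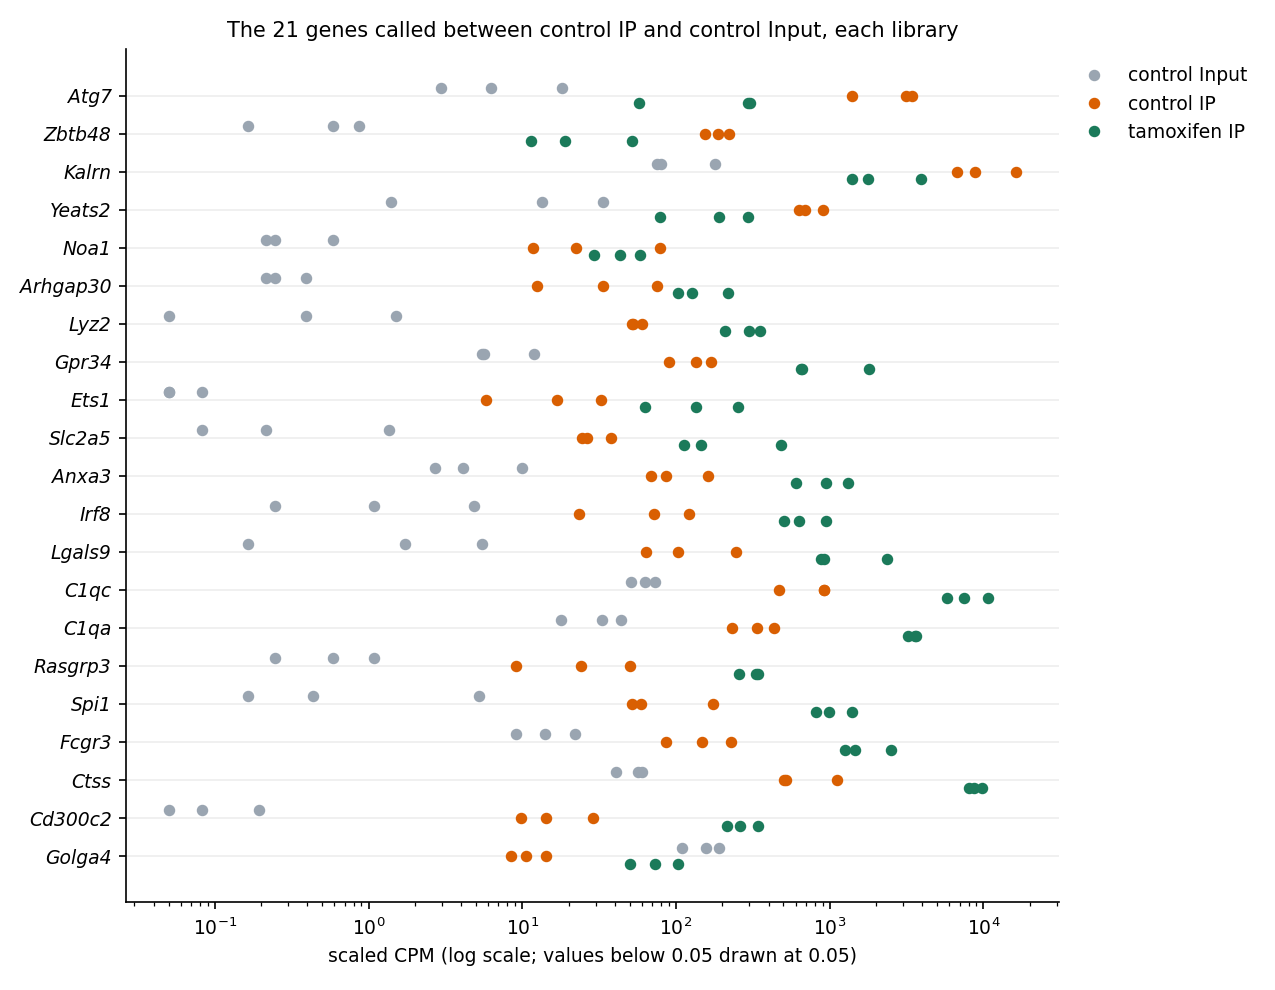
Scaled CPM of the 21 called genes on a log axis, one point per library, for control homogenate (grey), control immunoprecipitate (orange) and tamoxifen immunoprecipitate (green). Atg7, Zbtb48, Kalrn and Yeats2 at the top have their orange points to the right of the green ones, and C1qa, Ctss, Gpr34 and the other genes of the group of 15 have the green points farthest right.

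Values below are CPM scaled by TMM factors, which adjust each library for its composition, in the order A, B and C for controls and D, E and F for tamoxifen. Log2 fold changes and their standard errors come from one fit to the 12 first-set libraries of both fractions. In that fit the common biological coefficient of variation was 1.09, so single genes varied about as much as their mean between like libraries. Positions are in GRCm38.

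The complement component genes C1qa and C1qc, which encode chains of the molecule that starts the classical complement cascade and which microglia make in brain, were both called. C1qa (chr4:136895917-136898803) was at 43.9, 33.1 and 18 in control homogenates and at 230.1, 437 and 336 in control immunoprecipitates. The lowest immunoprecipitate lay above the highest homogenate, and the log2 fold change was 3.4 (SE 0.62), adjusted p = 0.0423. C1qc (chr4:136889804-136893065) went from 51, 73.1 and 62.7 to 469.8, 916 and 924, a log2 fold change of 3.63 (SE 0.66), adjusted p = 0.0423. For C1qb, the remaining chain, the values were 118, 64 and 66.8 against 640.4, 407 and 1438; they did not overlap, and the adjusted p of 0.0744 missed the threshold. In tamoxifen immunoprecipitates C1qa was at 3579.8, 3624 and 3214, with no overlap with the controls.

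Some receptors of the cell surface were also called, while others, given below, missed the threshold. Gpr34 (chrX:13632089-13640858), a receptor for lysophosphatidylserine, was at 5.49, 11.9 and 5.64 in homogenates and 134, 90.6 and 169 in immunoprecipitates, log2 fold change 4.1 (SE 0.76), adjusted p = 0.0449. Fcgr3 (chr1:171051174-171064935), an Fc receptor for IgG, was at 22.1, 9.14 and 14.1 and 147, 86.1 and 227, log2 fold change 3.34 (SE 0.64), adjusted p = 0.0449. Both genes were separated without overlap, with immunoprecipitate C the highest in each. Cd300c2 (chr11:114996721-115001880), a CD300 family receptor of myeloid cells, had 2 reads in all 3 homogenates together and was at 9.83, 14.2 and 28.7 in the immunoprecipitates (adjusted p = 0.0216). No fold is given for it because no homogenate had more than 3 reads. Folds given below can also rest on few homogenate reads, and their size is then uncertain. Reads in homogenates A, B and C were 0, 2 and 7 for Lyz2, 3, 3 and 5 for Rasgrp3 and 1, 7 and 1 for Slc2a5.

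Lysosomal enzymes were represented by 2 genes. Ctss (chr3:95526786-95556403), the cysteine protease cathepsin S, was at 56.8, 59.9 and 40.6 in homogenates and 521, 504 and 1114 in immunoprecipitates, log2 fold change 3.76 (SE 0.71), adjusted p = 0.0449. Lyz2 (chr10:117277331-117282321), a lysozyme of macrophages and microglia, was at 0, 0.389 and 1.52 and 51.9, 60.2 and 52.4, log2 fold change 6.57 (SE 1.05), adjusted p = 0.0216. The 3 immunoprecipitates lay close together for Lyz2, and all were far above the homogenates.

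Transcription factors were among the calls too, grouped here by function and not from a fixed list. Spi1 (chr2:91082390-91115756), which encodes PU.1, the factor that specifies macrophages and microglia, was at 0.164, 5.25 and 0.434 in homogenates and 52.1, 59.6 and 174 in immunoprecipitates, log2 fold change 5.64 (SE 1.08), adjusted p = 0.0449. Irf8 (chr8:120736358-120756694), a partner of PU.1 that microglia need to develop, was at 0.246, 4.86 and 1.08 and 71.5, 23.3 and 122, log2 fold change 5.17 (SE 0.99), adjusted p = 0.0449. Neither overlapped, and in both the B homogenate was the highest of its group. Ets1, of the same factor family as Spi1, had 1 read in all homogenates together against 16.7, 5.83 and 32.5 in immunoprecipitates (adjusted p = 0.0423). 

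The remaining calls of the group of 15 came from signalling, transport and secreted proteins. Rasgrp3 (chr17:75435896-75529054), an activator of Ras, was at 0.246, 0.584 and 1.08 in homogenates and 24, 9.06 and 50.1 in immunoprecipitates, log2 fold change 5.52 (SE 0.90), adjusted p = 0.0216. Slc2a5 (chr4:150119283-150144169), the fructose transporter, was at 0.0820, 1.36 and 0.217 and 37.7, 26.5 and 24.5, log2 fold change 5.81 (SE 1.12), adjusted p = 0.0449. Immunoprecipitate B was the lowest for Rasgrp3, and the 3 immunoprecipitates were close for Slc2a5. Anxa3 (chr5:96793339-96845966), an annexin, was at 9.92, 2.72 and 4.12 and 86.1, 69.3 and 161, log2 fold change 4.22 (SE 0.75), adjusted p = 0.0411. Lgals9 (chr11:78962974-78984946), which encodes the lectin galectin 9, was at 0.164, 5.45 and 1.73 and 104, 63.4 and 246, log2 fold change 5.85 (SE 1.12), adjusted p = 0.0449. None of these genes overlapped between the groups. Arhgap30, a GTPase activating protein, was at 0.246, 0.389 and 0.217 in homogenates, at the floor, and 75.2, 33.7 and 12.5 in immunoprecipitates.

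Sequence upstream of the recovered genes was read from the RefSeq table of GRCm38.p6 because PU.1 was among them and binds a purine-rich core. The 250 bases before each annotated start were searched on both strands for AGGAAGT (reverse ACTTCCT), a form of that core. It was found for 4 of the 13 genes called higher that have a window (30.8%), for 6 of 23 genes of the microglial list with a window (26.1%), and for 7.69% of all 32851 windows (8.34% of the 10358 tested genes with a window). Shorter and longer forms were searched too: GGAAGT was in 5 of the 13 and 19.7% of all windows, GAGGAA in 6 and 23.3%, and GAGGAAGT in 2 and 2.44%. These letters were chosen after the windows had been searched, and a match describes the letters and no binding. The 4 windows with the match are shown first, with the match in capitals, then those of Kalrn and Atg7, which have none; all read 5′ to 3′ on the gene's strand.
C1qc: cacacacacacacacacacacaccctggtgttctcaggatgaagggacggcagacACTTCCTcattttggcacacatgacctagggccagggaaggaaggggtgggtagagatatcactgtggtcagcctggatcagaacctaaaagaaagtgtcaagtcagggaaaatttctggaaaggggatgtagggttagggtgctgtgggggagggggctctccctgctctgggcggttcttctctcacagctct
Cd300c2: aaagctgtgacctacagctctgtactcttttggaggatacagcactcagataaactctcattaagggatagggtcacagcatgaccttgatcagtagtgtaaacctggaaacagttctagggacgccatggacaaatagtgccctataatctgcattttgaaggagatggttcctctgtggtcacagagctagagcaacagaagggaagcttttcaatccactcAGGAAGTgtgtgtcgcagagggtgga
Lyz2: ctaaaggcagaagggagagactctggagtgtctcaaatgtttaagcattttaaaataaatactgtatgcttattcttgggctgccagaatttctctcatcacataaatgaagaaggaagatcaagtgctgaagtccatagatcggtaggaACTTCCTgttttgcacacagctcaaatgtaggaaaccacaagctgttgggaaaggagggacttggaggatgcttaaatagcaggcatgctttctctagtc
Rasgrp3: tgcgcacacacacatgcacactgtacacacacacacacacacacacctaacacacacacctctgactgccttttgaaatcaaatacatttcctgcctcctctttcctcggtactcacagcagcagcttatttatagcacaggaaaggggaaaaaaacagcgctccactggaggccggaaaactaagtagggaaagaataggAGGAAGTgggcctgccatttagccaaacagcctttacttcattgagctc
Kalrn: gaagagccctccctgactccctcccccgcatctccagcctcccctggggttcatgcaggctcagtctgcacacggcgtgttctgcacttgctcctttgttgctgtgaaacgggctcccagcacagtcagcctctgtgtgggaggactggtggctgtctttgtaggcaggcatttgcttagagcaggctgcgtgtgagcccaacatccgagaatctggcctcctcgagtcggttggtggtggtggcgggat
Atg7: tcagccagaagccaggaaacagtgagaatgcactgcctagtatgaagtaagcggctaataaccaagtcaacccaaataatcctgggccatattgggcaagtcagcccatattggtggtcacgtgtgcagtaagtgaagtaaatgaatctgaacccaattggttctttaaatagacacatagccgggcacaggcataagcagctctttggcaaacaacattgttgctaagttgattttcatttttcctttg
The windows lie at chr4:136892915-136893164 (minus strand) for C1qc, chr11:115001881-115002130 (minus) for Cd300c2, chr10:117282273-117282522 (minus) for Lyz2, chr17:75435655-75435904 (plus) for Rasgrp3, chr16:34514028-34514277 (minus) for Kalrn and chr6:114670846-114671095 (plus) for Atg7. The window of Cd300c2 lies outside the gene span given by GENCODE, those of C1qc, Lyz2 and Rasgrp3 reach into it, and those of Kalrn and Atg7 lie wholly inside it.

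Homeostatic microglial markers as a list moved upward in control. All 30 were tested, and all 30 had a higher fitted level in the immunoprecipitate. The adjusted test called 5 of them higher, Gpr34, Ctss, C1qa, C1qc and Fcgr3, against 0.144% of all genes; at an unadjusted p under 0.05 there were 26, against a background of 5.29% of genes higher and 4.64% lower. In 20 of the 30 the 3 immunoprecipitates lay above the 3 homogenates without overlap, against 6.15% of all genes above and 7.03% below. The median log2 fold change was 3.28, with quartiles of 2.43 and 3.76, against -0.08 over all genes tested, with quartiles of -0.99 and 0.86. Tgfbr1, a receptor for TGF-beta that many cells express, was lowest at 0.82, and Tmem119 was highest at 5.31. In bulk RNA, fewer microglia and less RNA from each cannot be told apart.

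Genes at the centre of the model showed the spread behind these values. Cx3cr1 (chr9:119901616-120069879), whose promoter drives the Cre, was at 3.85, 18.7 and 26.5 in homogenates and 67.8, 19.4 and 141 in immunoprecipitates. The groups overlapped, because immunoprecipitate B lay under homogenate C, and the log2 fold change of 2.23 (SE 0.77) did not pass (adjusted p = 0.359). Tmem119, a membrane protein used to tell microglia from other macrophages, was at 1.15, 12.1 and 1.52 and 189, 92.6 and 297, log2 fold change 5.31 (SE 1.09), adjusted p = 0.0653. P2ry12, the purinergic receptor that guides microglial processes, was at 22.5, 21 and 21 and 346, 161 and 825, log2 fold change 4.37 (SE 0.87), adjusted p = 0.0610. Neither Tmem119 nor P2ry12 overlapped, yet both missed the threshold.

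Csf1r, the receptor whose signal microglia need to survive, was at 33.3, 58.8 and 3.47 in homogenates and 510.0, 135 and 648 in immunoprecipitates (adjusted p = 0.155). Immunoprecipitate B was the lowest of the 3 for Cx3cr1, Tmem119, P2ry12 and Csf1r, but not for C1qa and C1qc. Rpl10a, the gene of the tagged subunit, was at 7.21, 2.14 and 1.73 and 0.674, 0 and 20.4, a log2 fold change of 0.94 (SE 1.63) whose error exceeded it. Its sign turned in 3 alternatives, to -0.82 with limma voom, -1.78 with a replicate block and -3.07 without immunoprecipitate C, and near-identical Rpl10a pseudogene copies may share its reads.

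**Figure D2:**
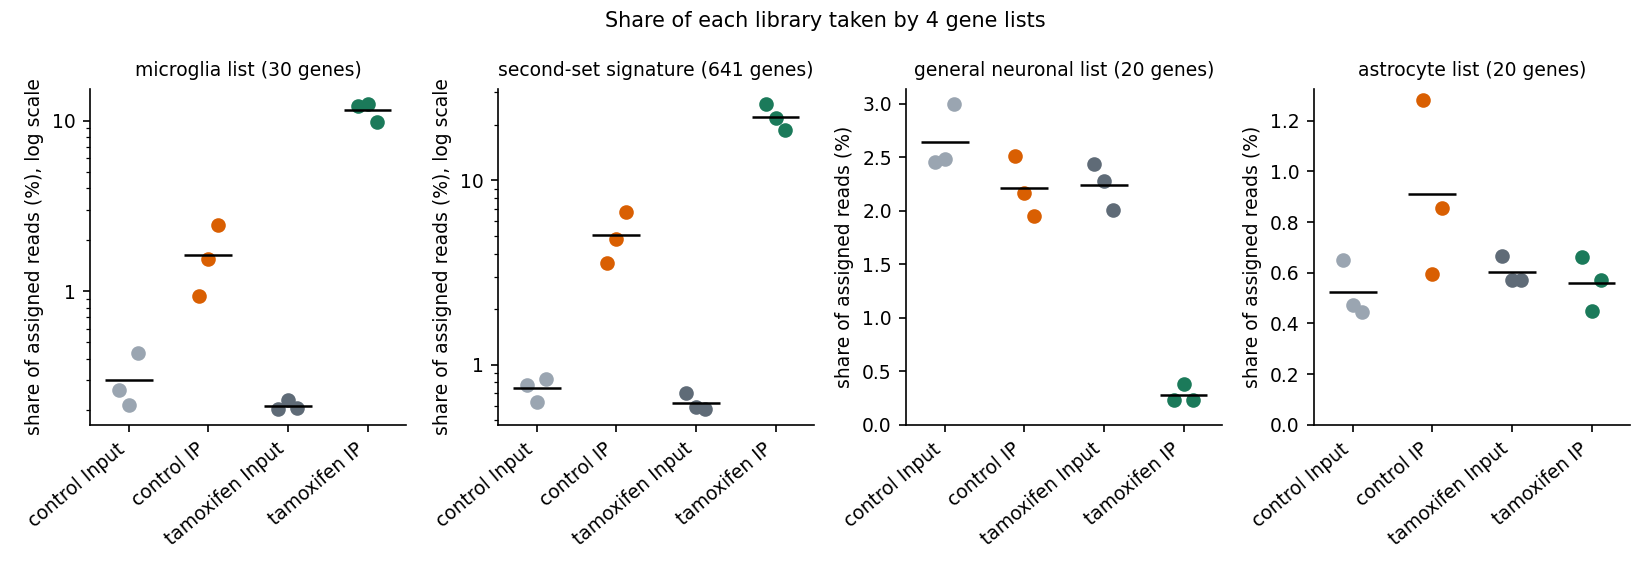
Share of assigned reads taken by 4 gene lists, one point per library, with a bar at the group mean; the microglial and signature panels have log axes, and the neuronal and astrocyte panels start at 0. The control immunoprecipitates lie between the homogenates and the tamoxifen immunoprecipitates for the microglial list and the signature, and beside the homogenates for the neuronal list.

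Measured as a share of reads, the microglial list took 0.261%, 0.215% and 0.430% of homogenate A, B and C and 0.937%, 1.53% and 2.43% of immunoprecipitate A, B and C. The means were 0.302% ± 0.113 (SD, n = 3) and 1.63% ± 0.753 (SD, n = 3), a ratio of 5.41, and the groups did not overlap. Cst3, which encodes the secreted protease inhibitor cystatin C, carried much of the list, at 0.137%, 0.118% and 0.326% of the homogenates and 0.268%, 0.784% and 0.828% of the immunoprecipitates, which overlapped. Without Cst3, an alternative added after seeing the data, the means were 0.109% and 1.01%, a ratio of 9.28. The tamoxifen immunoprecipitates held 9.83% to 12.5%, and their mean was 54.2 times that of tamoxifen homogenate. Gene by gene, the mean CPM in control was 3.14% (Aif1, a microglial calcium-binding protein) to 16.1% (Csf1r) of that in tamoxifen, with a median of 9.64%. Within the 3 libraries with under 6% of reads unaligned the ratio of shares was 6.46 (1 homogenate, 2 immunoprecipitates), and within the rest 4.75 (2 and 1).

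A list taken from other libraries covered more genes. In the second-set tamoxifen libraries, none of which enter the control comparison, 641 genes had an adjusted p under 0.05 and a log2 fold change of at least 3 in immunoprecipitate over homogenate, and 596 of these passed the filter here. Since the filter keeps genes through any group where they are high, the members that passed are not all members. In the control comparison 190 of the 596 were at the floor in a group. In control, 18 of the 596 were called higher, against 0.144% of all genes tested, and none lower. At an unadjusted p 284 were higher and 9 lower, against 5.29% and 4.64% of all genes. The median log2 fold change was 2.72, or 2.25 with genes at the floor set to their bound, against 6.05 with tamoxifen and -0.13 for the 13251 genes outside the list. When the 6 control libraries were filtered and fitted alone, 363 members passed, with a median of 2.39. Of these 1 was called and 134 passed at an unadjusted p in either direction, against 2 and 842 of 11947 genes tested. In the main fit the control fold also moved with the homogenate level. Over the lowest of 5 classes by level in control homogenate the median was 1.29, with 10.8% above without overlap, and over the highest -0.38. The lowest class held genes at -2.04 to 0.75 log2 CPM, and the list's median level in homogenates A, B and C was -1.62, 0.28 and -0.56, within that range. The list took 0.623% to 0.837% of reads in control homogenate, 3.55%, 4.78% and 6.74% in control immunoprecipitates A, B and C, and 18.8% to 25.8% in tamoxifen immunoprecipitates. Kalrn, Atg7 and Yeats2 belong to it and took 1.26%, 1.86% and 1.74% of the control immunoprecipitates; without them the list took 2.29%, 2.91% and 5.002%, against 0.602% to 0.825% of control homogenate. Zbtb48 and Noa1 were the 2 genes called higher that are not in it.

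**Figure D3:**
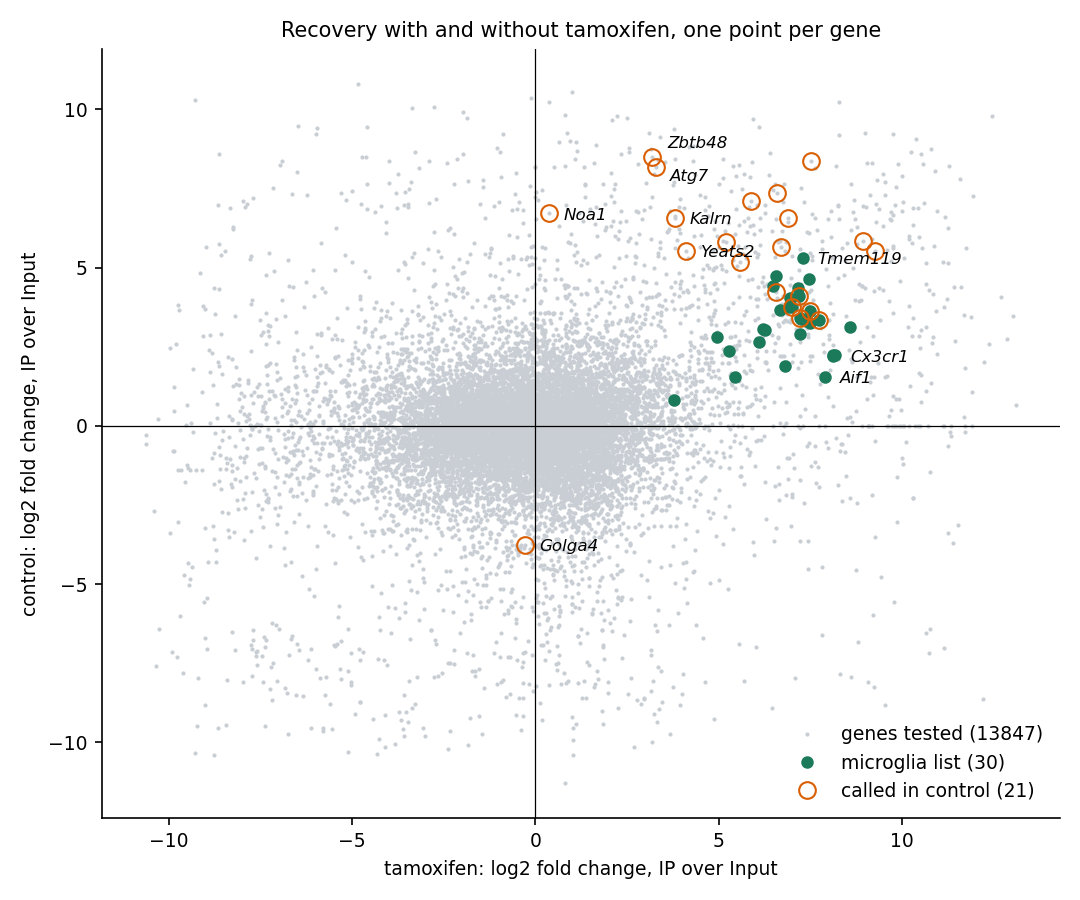
Log2 fold change of immunoprecipitate over homogenate for each tested gene, with tamoxifen on the horizontal axis and without it on the vertical axis; microglial list genes are green and genes called in control are ringed. All 30 green points lie right of and above 0, and Zbtb48, Atg7, Noa1, Kalrn and Yeats2, as well as Ets1, Cd300c2, Arhgap30 and Slc2a5, lie higher on the vertical axis than on the horizontal one.

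The other group was led by Kalrn (chr16:33969073-34573532), which encodes kalirin, a guanine nucleotide exchange factor of dendritic spines. It was at 75.3, 179 and 79.8 in control homogenates and 6750.1, 16348 and 8802 in control immunoprecipitates, a log2 fold change of 6.58 (SE 0.86), adjusted p = 0.00300. Kalrn took 0.788%, 1.66% and 1.19% of the reads of immunoprecipitates A, B and C, where it ranked 1, 2 and 1 among all genes by reads, and 0.00924%, 0.01695% and 0.00832% of the reads of the homogenates. Read counts grow with transcript length, and its exons span 24050 bases, so the rank is one of reads and not of molecules. In tamoxifen immunoprecipitates Kalrn was at 1787, 3930.2 and 1394, lower in each than in any control one, and in tamoxifen homogenates at 125, 214 and 171. The tamoxifen against control difference between immunoprecipitates was -2.17 (SE 0.71), adjusted p = 0.0872, and it passed in 5 of 16 alternatives: total counts (-2.76), no filter (-2.24), DESeq2 (-2.20), limma voom (-2.08) and a term for the alignment split (-2.35), the last chosen after seeing the data. Over the 16 the adjusted p ranged from 0.00157 with limma voom to 0.243 with all 24 first-set libraries. In the main fit the median difference between immunoprecipitates was -2.24 over general neuronal genes and -2.09 over oligodendrocyte genes. Over all genes tested it was 0.08. A fall of this size was therefore not particular to Kalrn.

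Atg7 (chr6:114643097-114860614), the enzyme that activates ubiquitin-like proteins in autophagy, was at 2.95, 6.23 and 18.2 in control homogenates and 3149, 1394 and 3425 in control immunoprecipitates. The lowest immunoprecipitate was far above the highest homogenate, and the log2 fold change was 8.19 (SE 1.01), adjusted p = 0.00300. In tamoxifen immunoprecipitates it was at 293, 302 and 57.1, a difference from control of -3.61 (SE 0.82), adjusted p = 0.0303. Zbtb48 (chr4:152019774-152027671), a zinc finger protein that binds telomeric repeats, had 2, 3 and 4 reads in homogenates A, B and C and 3262, 240 and 2397 in the immunoprecipitates, which is 0.164, 0.584 and 0.867 against 219.7, 155 and 187 scaled CPM. Its log2 fold change was 8.5 (SE 1.09), adjusted p = 0.00300, and its size is uncertain because the homogenates were at or near the floor. In tamoxifen immunoprecipitates Zbtb48 was at 19, 51.7 and 11.4. Yeats2 (chr16:20141063-20232573), a reader of acylated histones, was at 1.39, 33.7 and 13.4 and 901, 632 and 692, log2 fold change 5.53 (SE 1.01), adjusted p = 0.0423, and at 191, 296 and 79 with tamoxifen.

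Ubr3, a ubiquitin ligase, and Ylpm1 were also higher in each control immunoprecipitate than in each control homogenate but missed the threshold; they were chosen after their values were seen. Ubr3 was at 44.4, 135 and 150.3 in homogenates and 1284, 1064 and 950.4 in immunoprecipitates (adjusted p = 0.0744), and Ylpm1 at 74.8, 54.5 and 105 and 588, 999 and 658 (adjusted p = 0.0734). In tamoxifen immunoprecipitates Ubr3 was at 70.4, 316 and 81.8, lower than in any control one, and Ylpm1 at 103, 664 and 216, which overlapped with the controls. Together Kalrn, Atg7, Zbtb48, Yeats2, Ubr3 and Ylpm1 took 1.51%, 2.09% and 1.98% of control immunoprecipitates A, B and C, against 0.0244% to 0.0387% of control homogenates. In tamoxifen immunoprecipitates they took 0.124% to 0.415%.

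Of these 6 genes, 5 were called with tamoxifen too. Kalrn, Atg7, Zbtb48, Yeats2 and Ylpm1 were called higher in immunoprecipitate than in homogenate, with log2 fold changes of 3.8, 3.28, 3.19, 4.11 and 2.9. Ubr3 was not, at 0.94 (SE 0.67), adjusted p = 0.427. In the second set Kalrn was at 291 to 361 unscaled CPM in 5 homogenates and 3661 to 13080.0 in 5 immunoprecipitates, and Atg7 at 36.6 to 52.7 and 688 to 3363. Zbtb48 did not separate there, at 8.51 to 14.8 in homogenates and 7.13 to 26.6 in immunoprecipitates. In the control synaptosome fraction, the 6 genes took 0.0635% to 0.126% of the immunoprecipitates (PeMP_TRAP) and 0.0169% to 0.0265% of the starting fraction (SN_input).

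**Figure D4:**
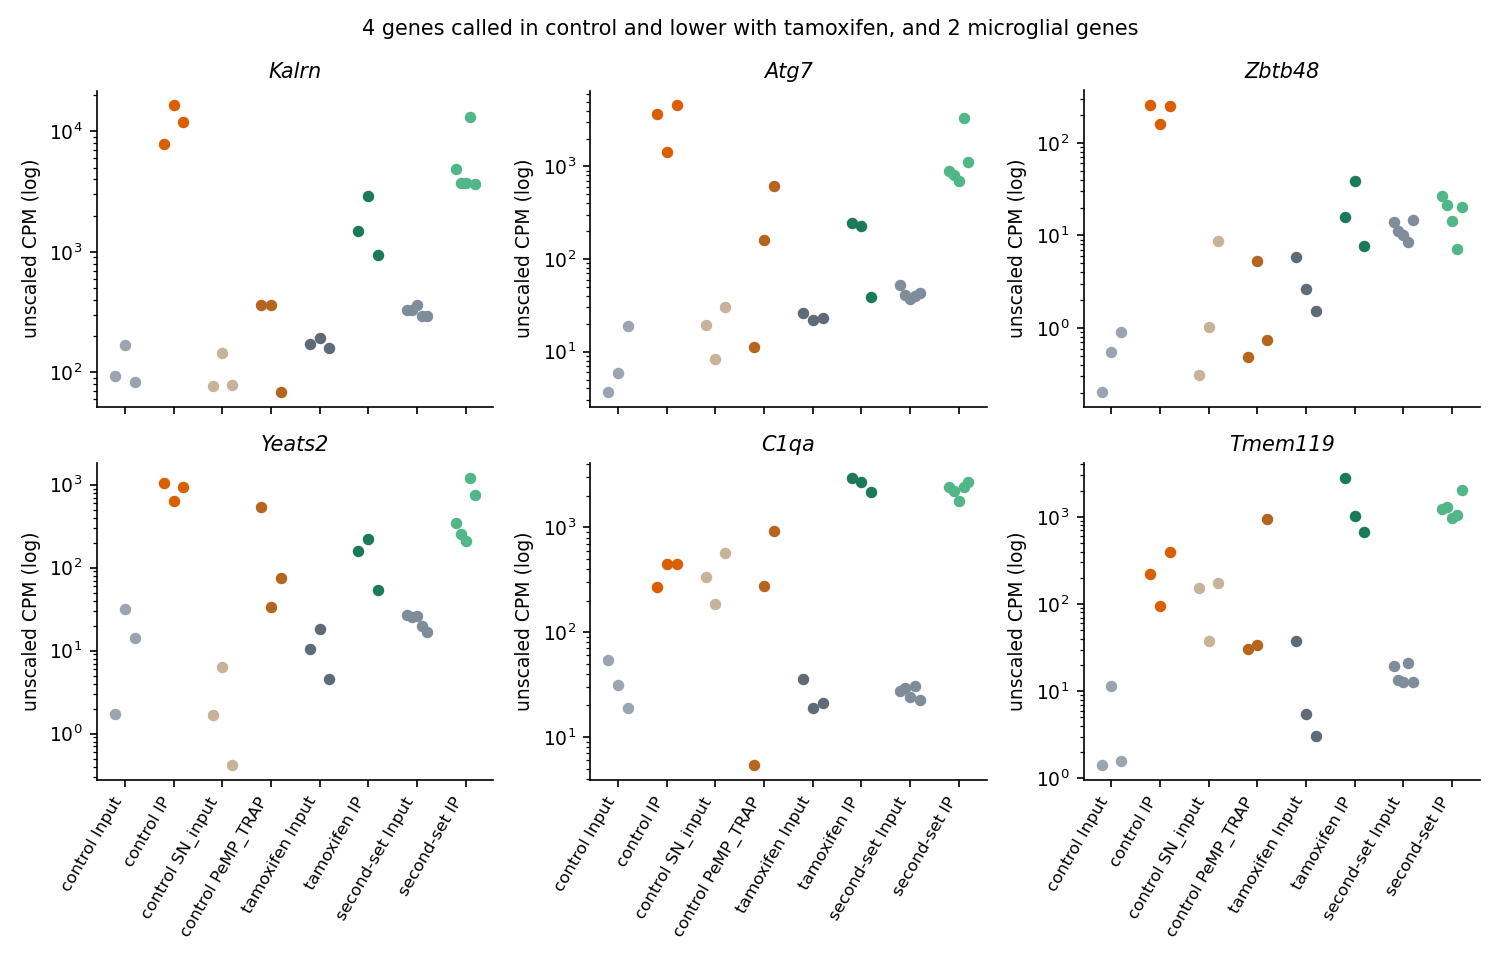
Unscaled CPM on a log axis of Kalrn, Atg7, Zbtb48, Yeats2, C1qa and Tmem119 in each library of 8 groups, one point per library. Kalrn, Atg7, Zbtb48 and Yeats2 are higher in each control immunoprecipitate than in each first-set tamoxifen one, and C1qa and Tmem119 lower.

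Noa1 (chr5:77294182-77310084) was at 0.246, 0.584 and 0.217 in control homogenates, at or under the floor, and at 22.2, 79 and 11.8 in control immunoprecipitates (adjusted p = 0.0449). In tamoxifen homogenates it was at 26.1, 55.8 and 19.2 and in tamoxifen immunoprecipitates at 29.1, 58.8 and 43.3, so the control homogenates were the libraries that stood apart. Its tamoxifen against control difference between immunoprecipitates was 0.22 (SE 0.96). The only gene called lower was Golga4 (chr9:118506267-118582519), a golgin of the trans-Golgi, at 156, 190.5 and 109 in control homogenates and 10.6, 8.41 and 14.2 in control immunoprecipitates, log2 fold change -3.77 (SE 0.67), adjusted p = 0.0411. With tamoxifen it was at 67.1, 114 and 96.2 and 103, 50.2 and 73.3, and those groups overlapped.

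Beyond Golga4, 9 genes were taken at an unadjusted p under 0.05 to fill the lower direction, with adjusted p of 0.173 to 0.463. They were Wasf3, Gpr89, Trps1, Cdkl2, Timm10, Crebrf, Tmem205, Fastkd2 and Mrpl14, with log2 fold changes of -4.94 to -3.63. Wasf3, an actin regulator of the WAVE family, was at 17.8, 125 and 52 in homogenates and 2.29, 1.94 and 2.02 in immunoprecipitates, with no overlap. Trps1, a transcriptional repressor, was at 56.7, 48.8 and 53.8 and 0.741, 8.41 and 0.857. In the tamoxifen comparison Trps1 was called lower too (-4.46, adjusted p = 0.0464), and the other eight were not called.

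Neuronal RNA was present in the control immunoprecipitate. No gene of the general neuronal, excitatory, inhibitory, presynaptic or dendritic lists was called, and the medians were -0.19, -0.67, -0.33, -0.17 and -0.14. Over all genes tested only 0.144% were called higher and 0.00722% lower, so an absence of calls in short lists says little. Under the alternatives only the inhibitory median kept its sign; without single libraries, the general neuronal one ranged from -0.36 to 0.20. With tamoxifen the same medians were -2.49, -2.23, -2.51, -2.42 and -1.63, and 11 of 20 general neuronal genes were called lower, against 2.32% of all genes tested. Snap25, a synaptic fusion protein, was at 5026, 2721 and 2651 in control homogenates and 4747, 2607 and 3782 in control immunoprecipitates, a log2 fold change of 0.1 (SE 0.62) that turned sign without immunoprecipitate A (-0.12) and with a term for the alignment split (-0.12). In tamoxifen immunoprecipitates Snap25 was at 604, 548 and 461. Slc17a7, the vesicular glutamate transporter of cortical neurons, was at 1079, 485 and 404 and 429, 211 and 519, and Gad1, the enzyme that makes GABA, at 341, 220.2 and 194 and 699, 158 and 388; both overlapped.

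Single neuronal genes varied more widely. Nrgn, neurogranin, was at 4233, 6989 and 12553 in homogenates and 1317, 4372 and 1239 in immunoprecipitates, log2 fold change -1.78 (SE 0.73), adjusted p = 0.427. Cck, a neuropeptide, was at 512, 2087 and 3511 and 80.0, 1060.3 and 119.7, log2 fold change -2.28 (SE 1.05), adjusted p = 0.478. Both overlapped, with immunoprecipitate B inside the homogenate range. By share, general neuronal genes took 2.51%, 2.17% and 1.95% of control immunoprecipitates A, B and C and 2.45%, 2.48% and 2.997% of control homogenates, against 0.228% to 0.375% of tamoxifen immunoprecipitates. As a ratio of mean shares to homogenate, the general neuronal list was at 0.836, the excitatory at 0.827, the inhibitory at 0.482, the dendritic at 0.656 and the presynaptic at 1.13; in each list the groups overlapped.

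Astrocyte and oligodendrocyte RNA was likewise present. No gene of either list was called in control, where 0.144% of all genes were called higher and 0.00722% lower. The control medians were 0.58 and 0.53, against -2.02 and -1.86 with tamoxifen. Without single libraries the control medians ranged from 0.03 to 1.44 and from 0.30 to 0.84. Aldoc, an aldolase of astrocytes, was at 935, 397 and 334 in homogenates and 3694, 819 and 1926 in immunoprecipitates, log2 fold change 1.95 (SE 0.74), adjusted p = 0.401, and at 192, 167 and 61.4 in tamoxifen immunoprecipitates. Astrocyte genes took 1.28%, 0.594% and 0.855% of control immunoprecipitates and 0.651%, 0.472% and 0.445% of homogenates, and the groups overlapped. Medians of the oligodendrocyte precursor, endothelial and immediate early gene lists were 0.24, -0.78 and 0.71, with no call in any, against the same low share of all genes. Without single libraries they ranged from -0.44 to 0.97, from -0.78 to -0.05 and from 0.15 to 1.16, so the sign of the first turned.

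**Figure D5:**
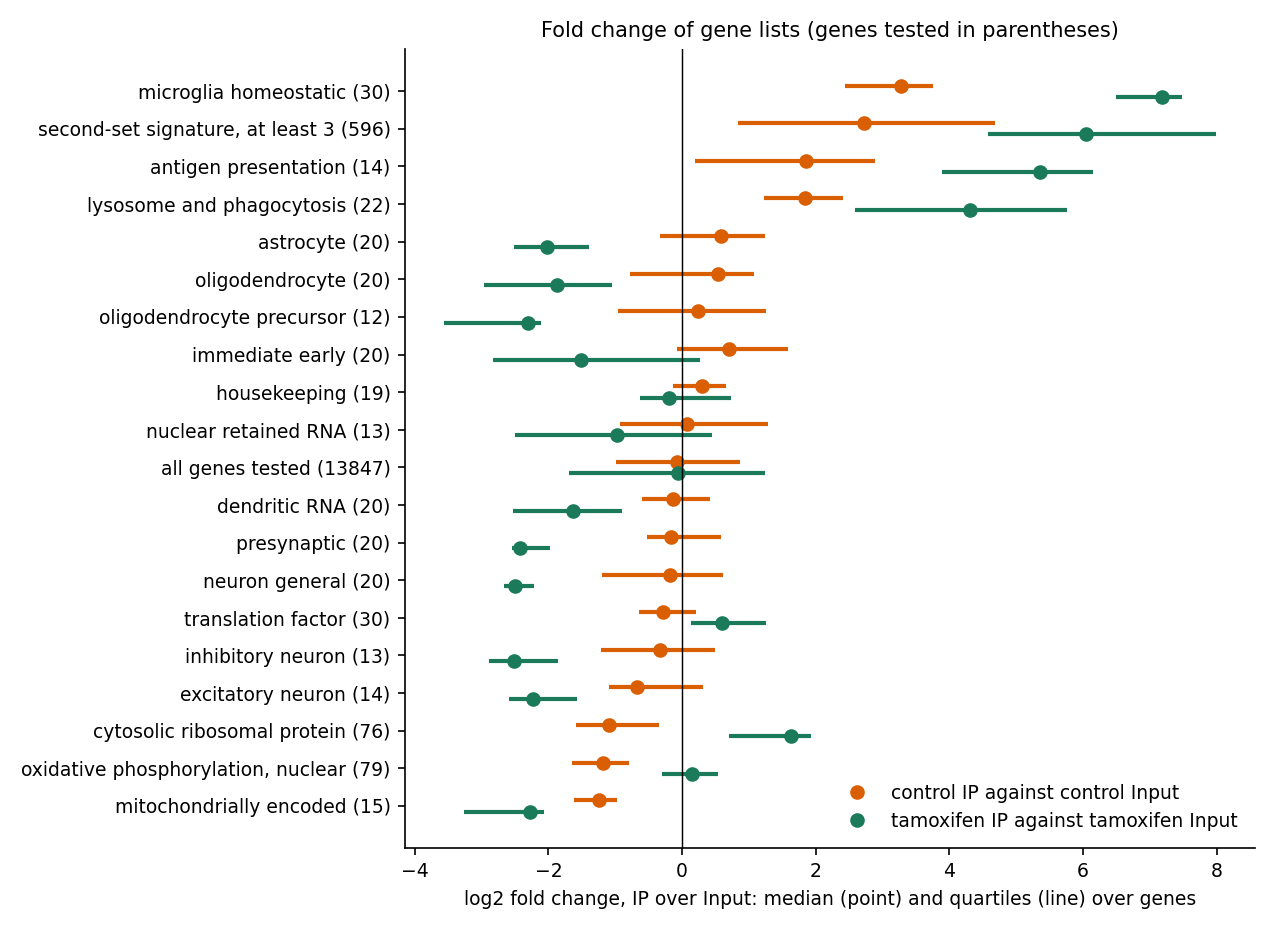
Median (point) and quartiles (line) of the log2 fold change over the tested genes of each list, for control (orange) and tamoxifen (green). Orange medians exceed 1 for the microglial, signature, antigen presentation and lysosomal lists and lie between -1 and 1 for the neuronal and glial lists, whose green medians lie below -1.

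Some abundant RNAs moved with the share of unaligned reads. They were chosen after their values were seen. Malat1, a long RNA kept in the nucleus, was at 2829, 25643 and 17286 in control homogenates A, B and C and 1437, 16718 and 1555 in the immunoprecipitates, a log2 fold change of -1.22 (SE 1.22). In each fraction the libraries with under 6% of reads unaligned were the low ones. The mitochondrial ribosomal RNA mt-Rnr2 did the same, at 4536, 35913 and 20696 and 602, 7525 and 453, log2 fold change -2.83 (SE 1.41), adjusted p = 0.531. With a term for that split, chosen after seeing the data, mt-Rnr2 was called lower, at -2.41 (SE 0.47), adjusted p = 0.0390. Arc, an activity-induced gene of neurons, was at 312, 143 and 66.6 and 783, 182 and 558, which overlapped (adjusted p = 0.550).

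Lysosomal and antigen-presenting genes, which microglia share with other cells, lay between the microglial and neuronal lists. Of 22 lysosomal and phagocytic genes 1 was called higher, Lyz2, against 0.144% of all genes tested, 8 were higher at an unadjusted p, against 5.29%, and the median was 1.84, against 4.32 with tamoxifen. Psap, the precursor of saposins, Ctsb, the protease cathepsin B, and Lamp1, a lysosomal membrane protein, overlapped between the groups, with log2 fold changes of 1.17, 1.37 and 1.05 and adjusted p of 0.809, 0.608 and 0.736. Ctsd, the protease cathepsin D, was at 140.4, 104 and 136 in homogenates and 622, 241 and 862 in immunoprecipitates without overlap (adjusted p = 0.313). Of 14 antigen presentation genes none was called, 4 were higher at an unadjusted p, against the same 5.29%, and the median was 1.85, against 5.36 with tamoxifen. H2-D1, a class I molecule, was at 19.9, 6.61 and 15.4 and 176, 40.8 and 177 without overlap (adjusted p = 0.150), and near-identical class I genes may share its reads. B2m, the light chain of class I, was at 206, 244 and 320.1 and 209.6, 517 and 569, which overlapped, and at 6821, 6474 and 7678 with tamoxifen.

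Markers of border macrophages, which also express Cx3cr1, were at or near 0 in control immunoprecipitates A and B but not in C. Of 12 listed genes 8 were tested, 6 of those were at the floor in a group compared, and none was called. Together the listed genes took 7.87e-06%, 0.000263% and 0.00578% of control immunoprecipitates A, B and C. Control homogenates held 0.000746% to 0.00493%, so C lay above the highest of them. Tamoxifen immunoprecipitates held 0.0194% to 0.0289%. Mrc1, the mannose receptor, had 0, 0 and 9 reads in control immunoprecipitates A, B and C, and Pf4, a chemokine, had 0, 0 and 38. No neutrophil and monocyte marker passed the filter, and no T, NK, B or plasma cell gene was called. Of 15 B and plasma cell genes 3 passed the filter, with a median log2 fold change of 1.64 that ranged from 0.05 with no filter to 4.19 without homogenate A. One of them, Ighm, the heavy chain of IgM, held most reads of the list, at 116, 22.2 and 27.1 in control homogenates and 145, 115 and 255 in control immunoprecipitates, which overlapped. Ms4a1, a defining B cell marker, had no read in any of the 12 libraries. The part of these cells in the recovered signal was otherwise not tested.

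Genes for ribosomal proteins, whose messages are translated heavily, had medians of opposite sign with and without tamoxifen. In control, 68 of 76 had a fitted level under that of homogenate, the median was -1.09 and none was called; with tamoxifen the median was 1.63 and 3 were called higher, against 3.7% of all genes tested. None passed the adjusted test of the difference. Rps3 was at 209, 217 and 369 in control homogenates and 70.1, 122 and 90.3 in control immunoprecipitates without overlap (adjusted p = 0.418), and at 480.2, 799.8 and 1291 in tamoxifen immunoprecipitates. The control median stayed negative in all 17 alternatives, from -1.996 without immunoprecipitate B to -0.49 without homogenate B. The list took 0.203%, 0.623% and 0.655% of homogenates A, B and C and 0.0977%, 0.542% and 0.156% of the immunoprecipitates, with the libraries under 6% unaligned the low ones. The ratio of mean shares was 0.538, and 0.626 within the libraries under 6% and 0.849 within the rest. The 79 nuclear genes of oxidative phosphorylation had a median of -1.18 in control and 0.14 with tamoxifen, and 15 mitochondrially encoded genes -1.24 and -2.27. Without single libraries the control medians ranged from -3.20 to -0.78 and from -2.91 to -1.04, lowest without immunoprecipitate B and highest without homogenate B. The oxidative phosphorylation list took 1.73%, 7.24% and 6.85% of homogenates A, B and C and 1.38%, 5.54% and 1.32% of the immunoprecipitates, with the same libraries low. The ratio of its mean shares was 0.520, and 0.779 within the libraries under 6% and 0.786 within the rest. Mitochondrial RNA took 0.390%, 1.68% and 0.379% of control immunoprecipitates and 1.89%, 4.49% and 3.35% of homogenates.

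Properties of the transcripts moved with recovery as well. The 375 processed pseudogenes tested had a median log2 fold change of -2.40 in control and 0.94 with tamoxifen, against -0.02 and -0.06 for 12491 protein-coding genes. When genes were divided into 5 classes by exonic length, the shortest class, with 57 to 2243 bases, had a control median of -0.77, and the next 0.10. By GC content in 5 classes the control median was -0.34 in the lowest and 0.20 in the highest. Ribosomal protein and oxidative phosphorylation genes are mostly short, and the part of length in their values was not tested.

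Recovery with and without tamoxifen differed by a formal test in 2 genes (0.0144% of those tested), both more enriched with tamoxifen, while 2132 differed at an unadjusted p. Siglech, a lectin of microglia, was at 24.5, 28.4 and 32.3 in control homogenates and 65.7, 113 and 226 in control immunoprecipitates, and at 9.73, 3.83 and 5.87 and 2292, 1677 and 1459 with tamoxifen. The difference of its log2 fold changes was 5.86, adjusted p = 0.0476. Cib1, a calcium-binding protein, was at 12.8, 17.7 and 35.3 and 11.3, 11.7 and 17.8 in control and at 12.6, 9.58 and 4.89 and 322, 257 and 502 with tamoxifen, a difference of 5.99, adjusted p = 0.0476; both calls were lost with RLE size factors, total counts, thinning or all 24 first-set libraries. For Cx3cr1 the difference was 5.95, adjusted p = 0.114. The difference was positive in all 30 microglial genes, 24 of them at an unadjusted p, against 1024 of the 13847 genes tested. Between the immunoprecipitates 219 genes were higher (1.58%) and 270 lower (1.95%) with tamoxifen. That balance moved to 115 higher and 740 lower with total-count scaling, and to 164 and 411 without control immunoprecipitate B. The test of the difference and the one between immunoprecipitates share the control immunoprecipitates.

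The control calls rest on few libraries that vary widely. Atg7, Kalrn and Zbtb48 were called whichever of the 6 libraries was left out, and Lyz2 whenever homogenate B was kept. Calls numbered 4 without homogenate A, 4 without homogenate C, 5 without immunoprecipitate C and 78 without immunoprecipitate B, the shallow library. With the 6 control libraries alone only Atg7 and Zbtb48 were called, and with all 24 first-set libraries only Atg7 and Kalrn. A term for the share of unaligned reads, chosen after seeing the data, gave 57 higher (0.412%) and 9 lower (0.065%), including all 21 above. Of those 57, 46 were in the second-set list and 16 in the microglial list, P2ry12, C1qb, Tyrobp and Aif1 among them; Ubr3 and Ylpm1 were among the 11 outside the second-set list, and Ndufa4, Ndufc2, Atp5o and Ndufb1-ps, subunits of respiratory chain complexes or copies of them, were among the 9, with mt-Rnr2, Prdx5, Hbb-bs, Xpc and Golga4.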

How the data were processed

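RNA was measured in 44 libraries, of which 6 form the comparison and 6 tamoxifen libraries share its fit. Deposited by the authors were integer HTSeq counts, one value per Ensembl identifier; per the labels, cDNA was amplified with a SMART-Seq v4 kit. The submitters' processing notes name FastQC 0.11.7, Trimmomatic 0.38, Bowtie2 2.3.5, STAR 2.7.0d, HTSeq 0.9.1 and edgeR, with no roles or order. The genome build, annotation and counting options are not given in the sources used here. Symbols and positions were taken from GENCODE M21 (GRCm38), which holds 54079 of the 54146 first-set identifiers. Rows that name no gene were left out of library sizes; in the 6 control libraries, unaligned reads made up 2.71% to 18.8% of all reads, multiply aligned reads 26.2% to 37.4%, reads outside genes 3.41% to 5.83% and ambiguous reads 2.43% to 4.00%.

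Counts were tested with edgeR 4.0.16 in R 4.3.3 by the quasi-likelihood test, with TMM scaling, filterByExpr at a minimum count of 10, 4 group means and Benjamini-Hochberg adjustment over all genes tested, at a threshold of 0.05. The procedure was tested on simulated data. Recovery of folds and calls was required there only at a spread below that of these data. At a spread near theirs only the sign of the median fold was required. Log2 CPM used a prior count of 2. Alternatives were RLE or total-count scaling, no filter or a minimum count of 50, DESeq2 1.42.0, voom in limma 3.58.1, other sets of libraries, a replicate block, thinning to 1522779 reads, leaving out each library, and a term for libraries with under 6% of reads unaligned. Genes named were up to 15 called in each direction by size among those with a mean log2 CPM of at least 3 and no overlap, filled to 10 at an unadjusted p, plus the most abundant members of each list; the remaining calls were named too, with other genes where said. Members and lists were chosen with earlier results of these data known. List shares carry no p-value, since the lists were chosen with results in view.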

Additional observations from a re-analysis of the deposited data

Results flagged for a closer look

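Siglech and Cib1 are singled out because the test of the difference between tamoxifen and control enrichment passed in them. The difference of log2 fold changes was 5.86 for Siglech and 5.99 for Cib1. Siglech was higher in each control immunoprecipitate than in each control homogenate, and higher still in each tamoxifen immunoprecipitate. Its homogenates differed too, at 30.1, 26.8 and 33.7 unscaled CPM in control and 13.4, 3.48 and 5.47 with tamoxifen. Both fractions therefore enter its difference. Cib1 homogenates, at 15.7, 16.7 and 36.9 and at 17.4, 8.69 and 4.56 unscaled CPM, overlapped. Cib1 was at 11.3, 11.7 and 17.8 scaled CPM in control immunoprecipitates and 12.8, 17.7 and 35.3 in control homogenates, with overlap, and at 322, 257 and 502 in tamoxifen immunoprecipitates. Groups of 3 libraries were not examined for single outlying samples.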

How the results depend on the processing

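In control, 21 genes were called. The count was 206 with no filter, 424 with DESeq2, 2 with all 24 first-set libraries, 2 with the 6 control libraries alone, 66 with the alignment split chosen after seeing the data, and 4 to 78 without single libraries; it stayed within 1.5 times with RLE (21) or total counts (20), a minimum count of 50 (19), voom (17) and thinning (15), which shared 21, 18, 18, 8 and 11 of the 21. The 834 calls with tamoxifen became 2376 with DESeq2, 1935 with voom, 140 with 24 libraries, 1741 with the split and 255 to 530 without single libraries. With total counts there were 1069, of which 362 were higher and 707 lower. The 140 with 24 libraries were 135 higher and 5 lower. The 2 calls of the difference became 0 with RLE, total counts, thinning or 24 libraries, 280 with no filter, 808 with DESeq2, 82 with voom, 527 with the split and 0 to 5 without single libraries. The 489 calls between immunoprecipitates became 855 with total counts, 1109 with no filter, 2381 with DESeq2, 1957 with voom, 0 with 24 libraries, 1638 with the split and 0 to 575 without single libraries. The cause was not tested. At the counts of 0, 1362 to 2732 genes passed at an unadjusted p for the difference and 2356 to 2750 between immunoprecipitates.

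The labels do not say whether libraries of one letter come from one animal, and the letter was not used as a block in the values reported. The deviations of same-letter libraries correlated at 0.13, 0.13 and -0.05 for A, B and C and 0.25, 0.10 and 0.11 for D, E and F. With the letter as a replicate block the calls were 61 in control, including all 21, 1319 with tamoxifen, 153 for the difference and 219 between immunoprecipitates.

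The control median of the second-set list ranged from 1.82 to 3.46 over its alternatives. Signs turned in 4 named genes. Rpl10a was at -0.82 with voom, -1.78 with the block and -3.07 to 1.88 without single libraries. Snap25 in control was at -0.12 with the split and -0.12 to 0.67 without single libraries, and Cib1 in control ranged from -0.95 to 0.0919. Noa1 between immunoprecipitates was at -0.32 with total counts and -0.21 to 0.92 without single libraries. Depth limits the low genes: immunoprecipitate B has a floor of 1.97 CPM. Without mitochondrially encoded reads, the microglial list took 0.941% to 2.44% of control immunoprecipitates and 0.225% to 0.445% of homogenates.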

Other observations

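Sex was not labelled. Xist, which female cells express, and the Y-linked Ddx3y were read by letter in unscaled CPM. Xist was at 14, 1.10 and 10.2 in control homogenates A, B and C and at 19.1, 0 and 19.9 in the immunoprecipitates. Ddx3y was at 0, 39 and 10.2 and at 0, 4.60 and 51. Both fractions of letter A had Xist and no Ddx3y read, both of letter B had Ddx3y with Xist near 0, and both of letter C had both genes. The synaptosome libraries of the same letters did not keep to this. Xist was at 0.309, 0 and 0.103 in SN_input A, B and C and at 448, 295 and 0 in PeMP_TRAP, and Ddx3y at 0, 2.29 and 17.4 and at 0, 84.5 and 0.737.

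The control synaptosome libraries held RNA of the microglial marker list as well. The 30 microglial markers took 0.721% to 1.80% of the 3 SN_input libraries and 0.518% to 3.18% of the 3 PeMP_TRAP libraries, against 0.215% to 0.430% of homogenate. Cst3 carried much of these shares, at 5755, 3389 and 8850.5 unscaled CPM in SN_input A, B and C. In PeMP_TRAP it was at 1940, 4276.5 and 14162.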
